A study of Citrullus lanatus with 30 samples.

Results

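Across 22596 loci of the watermelon fruit transcriptome, 46 (0.204%) stood highest in flesh labelled CT, of age 20 DAP (commonly days after pollination), by more than 2 times over each of 4 other flesh stages. A locus was a member if its mean FPKM (fragments per kilobase of length per 1000000 mapped fragments, the deposited unit) was at least 10 in CT replicates 2 and 3, and more than 2 times the mean of PD replicates 1 and 2 and of all 3 libraries each of SW, BW and RF. The loci were thus chosen by their stage levels, which are described below and carry no test. Flesh and rind came from Citrullus lanatus subsp. vulgaris cv. 97103, with 3 flesh libraries at each of 6 stages. The stage titles are PD for 0 DAP, AP for 1 DAP, SW for 5 DAP, BW for 10 DAP, CT for 20 DAP and RF for 30 DAP. A further 3 flesh libraries of 20 DAP are titled 5_Aza and carry a treatment label that spells 5-azacytidine as "5-zazcytidine", with no dose or time. Another 3 flesh libraries of 20 DAP are titled Mock, with the genotype Wild-type. The labels of 5_Aza and Mock name no cultivar. Rind was represented by 2 libraries each of R2_RF (30 DAP), R4_RF (30 DAP) and R4_CT (20 DAP). Their source is rind while their tissue label and extraction text say flesh, and the labels do not explain R2 and R4.

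Watermelon is a non-climacteric fruit whose flesh first grows by cell division and then by expansion of large, water-filled cells. Towards ripeness the flesh accumulates soluble sugars and, in red-fleshed cultivars, lycopene, a carotenoid pigment, while the rind stays firm and pale. 5-Azacytidine is a cytidine analogue that traps DNA methyltransferases, and it is used to lower DNA methylation.

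Each locus is listed only as a stretch of a numbered WM97pbV1 chromosome or scaffold, without a gene name, so it is given here by chromosome, start and end. What each encodes, its strand, and where its exons, introns and UTRs lie were not analysed here, and for the same reason the tissue labels could not be checked against marker genes. The authors' summed FPKM per library lay between 762714 and 886495, with 14165 to 16177 loci at 1 FPKM or more, and replicates correlated at 0.993 to 0.997 on the log2 scale. Read depth is unknown, so no counting interval can be given. AP is represented by replicate 3 alone, because values of the other two AP libraries did not follow their loci. Whether replicates were separate fruits is not stated, so p-values measure only the spread between libraries, which may be technical. In these bulk samples, fewer cells of a type and less RNA per cell cannot be told apart.

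The 20 DAP peak was mostly shallow against the next highest stage. The ratio of the CT mean to the highest other stage mean had a median of 2.66, and the ratio lay between 2 and 3 at 32 members, above 5 at 7 and above 10 at 1. Means climbed at each step through PD, SW, BW and CT at 30 of the 46, where the rule fixed the last step. The share over all loci was not counted, so nothing is read from this count. The next highest stage was RF at 24 members, BW at 19, SW at 2 and PD at 1. Median levels of the 46 were 4.585 FPKM in PD, 14.7 in SW, 33.8 in BW, 122 in CT and 39.9 in RF. Few members were close to silent next to the peak, since 2 had means under 1 FPKM in BW and 1 in RF, while 13 did in PD and 8 in SW. CT means of the rule ran from 11.9 to 94175 FPKM, with 8 members at 1000 or more, 17 between 100 and 1000 and 21 under 100. In comparison, the same rule with SW as the peak stage found 212 loci and with BW as the peak stage 117.

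**Figure D1:**
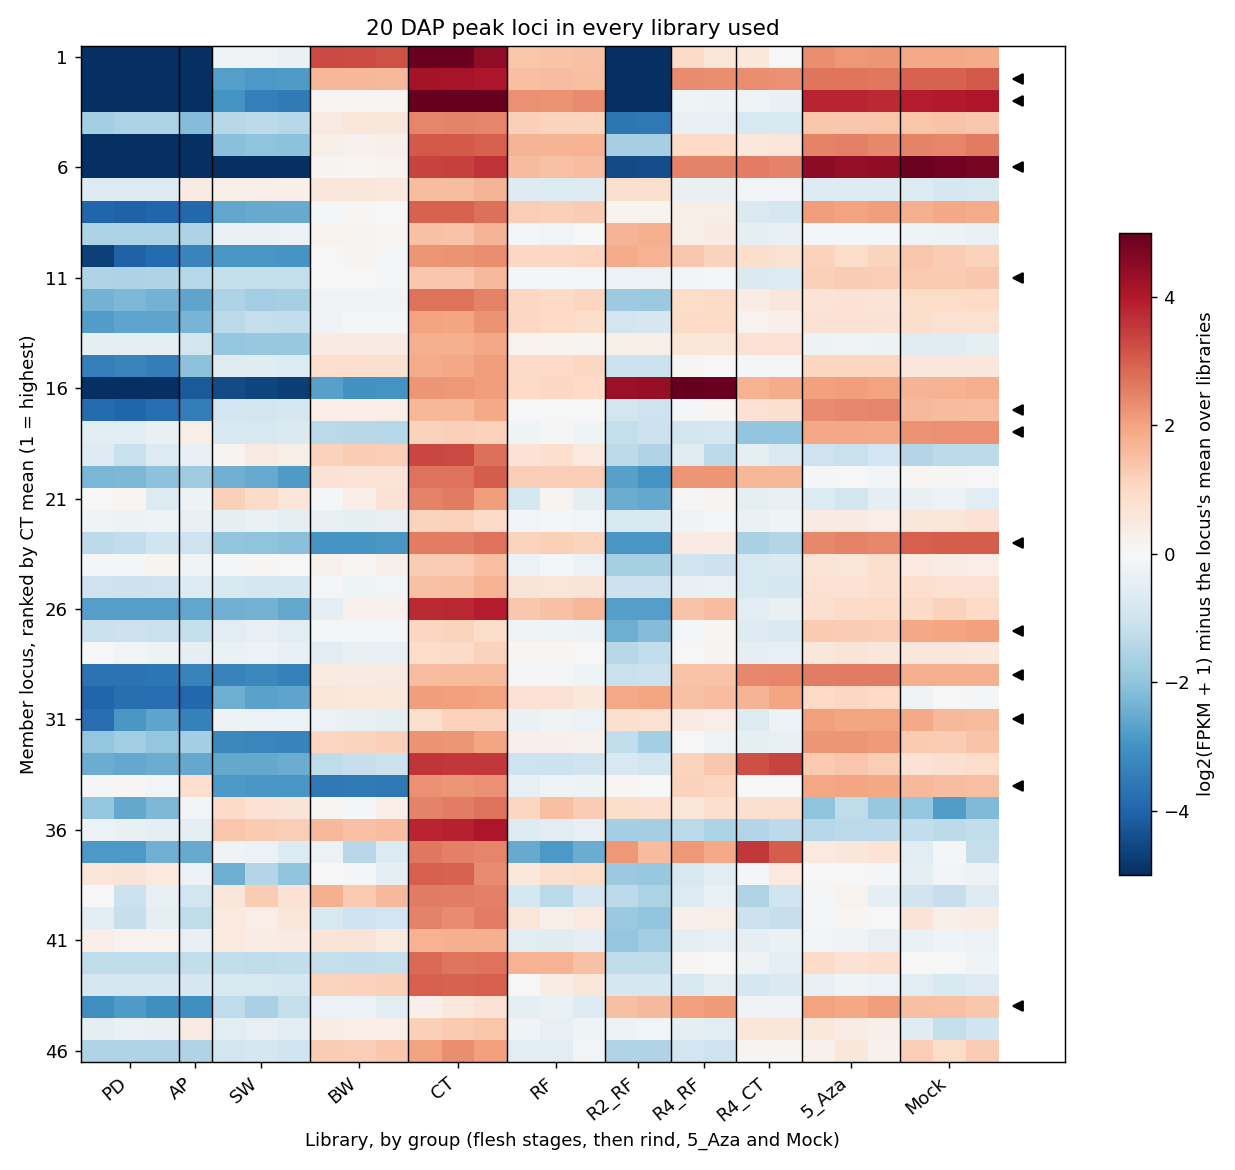
Rows are the 46 members ranked by CT mean and columns the libraries used, by group; colour gives log2(FPKM + 1) minus the mean of that locus over the libraries, and black triangles mark the 12 members that also meet the rule with Mock in place of CT. CT columns are red or pale red in the rows, whereas R2_RF columns are blue in many rows and 5_Aza and Mock columns are red in some rows and blue in others.

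Members near the thresholds differed little from their excluded neighbours. The smallest ratios inside were 2.005 at chr2:834772-840309, 2.007 at chr7:24257266-24260248 and 2.02 at chr7:31185046-31186548. Just outside were 1.994 at chr2:21574918-21582736, 1.976 at chr8:17065479-17078327 and 1.975 at chr9:13278843-13286048. On the level threshold, the lowest CT means inside were 11.9 FPKM at chr9:33367941-33370759, 11.9 at chr10:2543427-2544440 and 12.2 at chr6:24406956-24407348. Loci that passed the ratio but not the level had CT means of 9.40 FPKM at chr11:1320736-1322648, 9.02 at chr10:31904175-31908153 and 8.40 at chr4:18211038-18212134.

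A single short locus dominated the group. At chr10:21559312-21559608, a span of 297 bp, the FPKM were 15.4, 16.3 and 44.5 in PD, 55.6 in AP, 3163, 3149.7 and 2875 in SW and 35751, 34428 and 33008 in BW. In CT the same locus had 109151, 110618 and 77731 FPKM, and in RF 9372, 9502 and 9779. It thus peaked at CT in every library, with replicate 3 below the other CT libraries. It alone held 8.77% to 12.8% of the summed FPKM of CT libraries, 4.12% to 4.37% in BW and 1.16% to 1.22% in RF. The other 45 members together held 2.49% to 2.55% in CT, 0.522% to 0.533% in BW and 0.754% to 0.760% in RF.

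The next 5 by level were low at 0 DAP, with 1 exception. The locus chr9:33130627-33133472 had 0.134, 0 and 0.709 FPKM in PD, 30.4, 27.7 and 28.7 in SW, 663, 656 and 649 in BW, 3743, 3645 and 3483 in CT and 593, 615 and 598 in RF. Its BW and RF levels lay close together on either side of the peak. The locus chr5:10117915-10121202 had 92.2, 92.3 and 93.3 FPKM in BW, 3472, 3446 and 3463 in CT and 423, 418 and 444 in RF, a ratio of 8.06 to its next stage. At chr2:7803807-7804298, listed at 0 in the PD libraries of the rule, levels were 182, 179 and 188 FPKM in BW, 1721, 1765 and 2048 in CT and 495, 452 and 481 in RF. These 3 loci were lower in RF than in CT but far from silent there, with RF means of 602, 428 and 476 FPKM in the order named. By contrast, chr11:25740296-25744161 was already at 140.0, 149.9 and 151 FPKM in PD, and reached 2496, 2548 and 2449.5 in CT, against 1043, 987 and 977 in RF. At chr5:31831219-31833010 the levels were 2.78, 2.49 and 3.80 FPKM in PD, 2165, 2135 and 2016 in CT and 828, 835 and 841 in RF.

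The other 4 of the 10 highest were more varied. The locus chr9:37467535-37469750 had a broad pattern, with mean levels of 229.9 FPKM in PD, 447 in SW, 537 in BW, 1105 in CT and 231 in RF, and 487 in the AP library. At chr4:26547947-26548760 means were 8.84 FPKM in PD, 155 in BW, 1138 in CT and 365 in RF. At chr1:31685617-31686158 they were 99.4 FPKM in PD, 329.8 in BW, 865 in CT and 282 in RF. At chr1:2161322-2161949 they were 5.01 FPKM in PD, 108 in BW, 514 in CT and 221 in RF.

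Several of the steepest peaks belonged to loci of moderate level. With both means raised by 1 FPKM, the 8 largest ratios belonged to 3 of the 10 most abundant members and to 5 others. The narrowest was chr9:14672399-14676289, listed at 0.0720, 0 and 0.0637 FPKM in PD and at 0, 0 and 0.0535 in SW. It had 1.45, 1.68 and 1.80 FPKM in BW, 69.6, 68.1 and 68.0 in CT and 1.90, 1.85 and 1.98 in RF. Its CT mean in the rule was 35.6 times its RF mean, the only ratio above 10. At chr11:7970524-7970829, a span of 306 bp, the CT libraries had 44.8, 40.3 and 38.6 FPKM, against 0.273, 0 and 0.306 in RF and at most 5.46 in any SW or BW library. At chr6:3047055-3048326 the levels were 9.001, 7.89 and 8.36 FPKM in BW, 44.999, 45.1 and 52.8 in CT and 1.02, 1.17 and 1.44 in RF. The locus chr7:3732954-3733977 was listed at 0 in all PD libraries and had 89.0, 92.5 and 102 FPKM in CT and 16.3, 17.8 and 20.4 in RF. A different shape appeared at chr2:6780011-6781501, where 12.4, 13.6 and 11.8 FPKM in PD gave way to 0.198, 0.209 and 0.194 in BW before 68.2, 64.3 and 68.4 in CT and 9.75, 11.2 and 10.7 in RF. It was the only member whose next highest stage was PD.

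**Figure D2:**
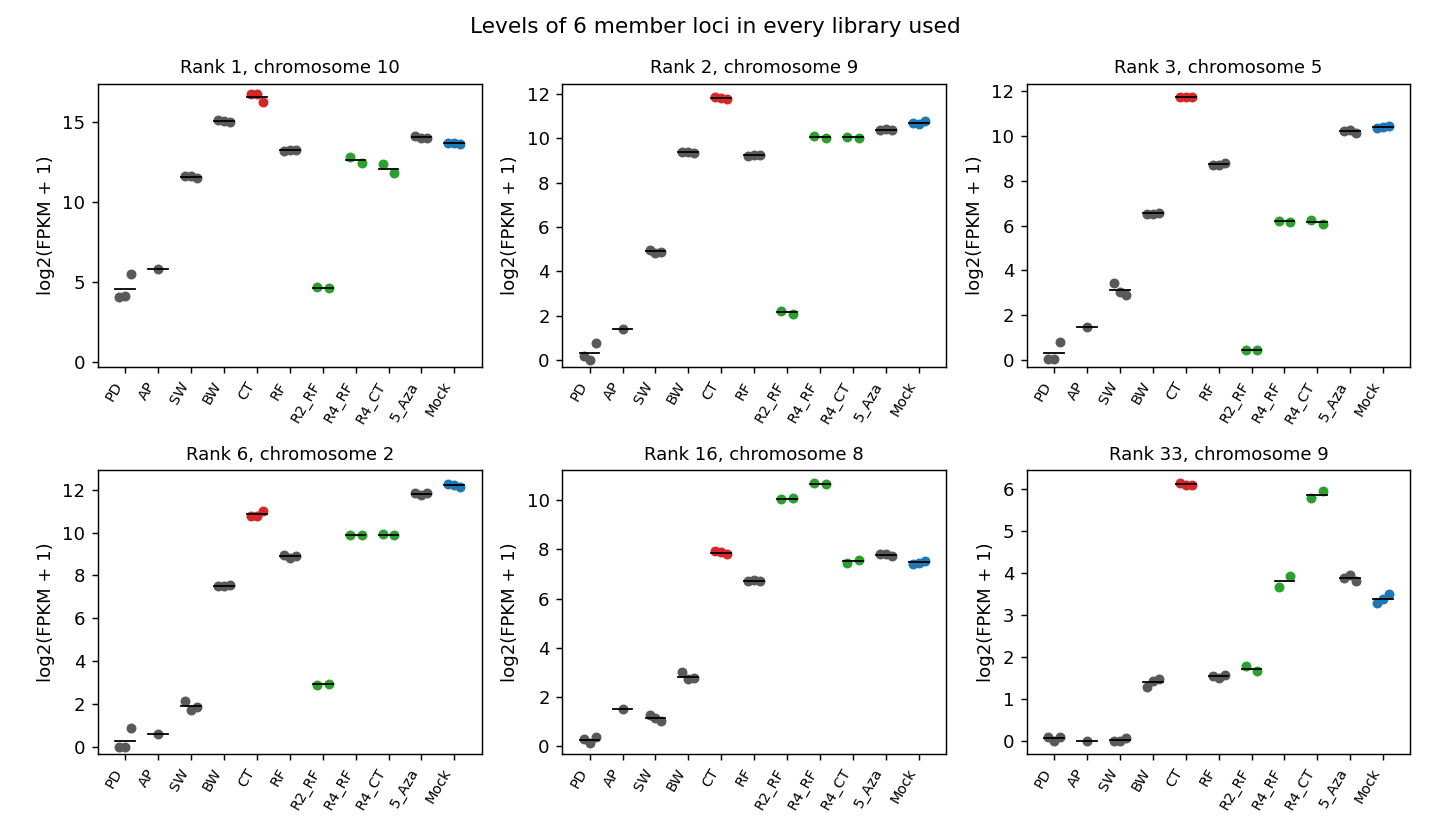
Each panel gives log2(FPKM + 1) of 1 member in every library used (points, with lines at group means), with CT in red, Mock in blue, rind in green and the other groups in grey. The loci are, by rank, chr10:21559312-21559608 (1), chr9:33130627-33133472 (2), chr5:10117915-10121202 (3), chr2:7803807-7804298 (6), chr8:1604214-1610508 (16) and chr9:14672399-14676289 (33); Mock lies below CT in panels 1, 2, 3, 16 and 33 and above it in panel 6, and R2_RF and R4_RF exceed CT in panel 16.

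Libraries that the rule did not use were set against the stage means that chose the members. These counts are thus a description and have no test. CT replicate 1 met the rule in place of the CT mean at 39 of the 46, where 47 of 22546 loci with a value (0.208%) met it. Of the other 7 members, 6 missed the ratio alone and 1 missed the level. CT replicate 1 lay above every PD, SW, BW and RF library at all 46 members. The rule held those stages well under CT, and the share over all loci was not counted, so nothing is read from this. The smallest ratio of CT replicate 1 to the highest other stage mean was 1.625. It stood at 0.741 to 1.255 times the mean of the other CT libraries. The 3 CT libraries had a median coefficient of variation of 7.67% over the members and of 6.20% over all loci at a CT mean of 10 FPKM or more. The single AP library was below the CT mean at all 46, with a median of 6.63 FPKM, and the CT mean was more than 2 times its value at 44. The CT mean was more than 2 times the value of PD replicate 3 at all 46. The rule chose high CT means, and shares over all loci were not counted for AP or PD replicate 3.

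In Mock, the other set of 20 DAP flesh with no treatment label, 12 of these loci also stood out. All 46 met the rule in CT by choice, so a lower count in Mock is not read as a result. Setting the Mock mean in place of the CT mean, 12 of the 46 members (26.1%) met the rule, beside 4.41% of all loci and 5.29% of the 8748 loci with a CT mean of at least 10 FPKM. Mock exceeded the highest of the PD, SW, BW and RF means at 23 members, beside 30.6% of those 8748 loci. It reached 10 FPKM at 33 members, beside 92.6% of those loci. Stage libraries were deposited with 6 significant digits and the 5_Aza, Mock and rind libraries with 6 decimals, so a comparison of CT with Mock crosses 2 forms of output, and the part of that difference in these values was not tested. The stage means that Mock was set against are those that chose the members, so these counts have no test.

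**Figure D3:**
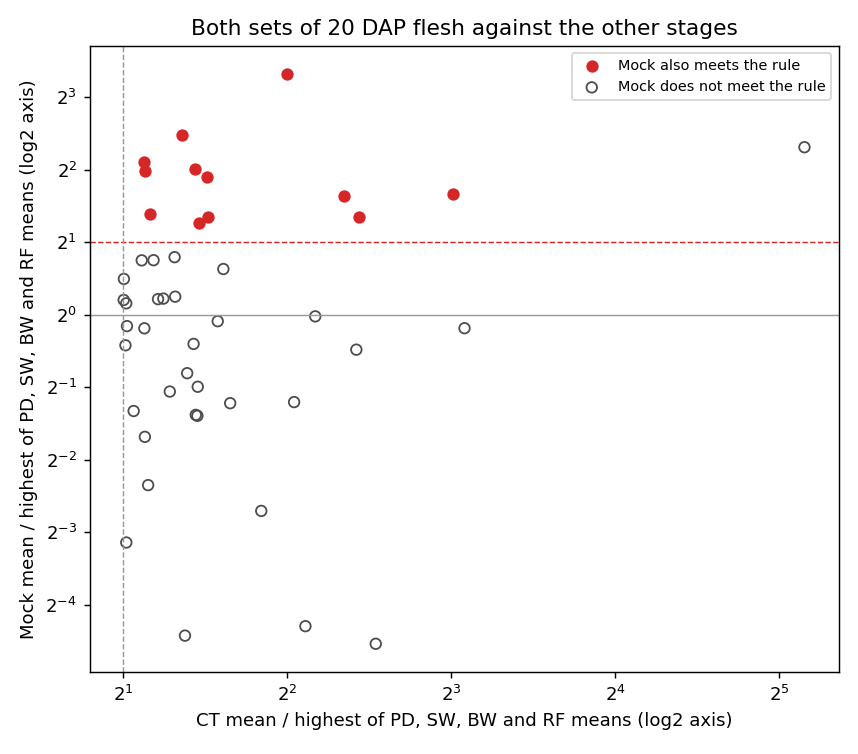
Each point is 1 of the 46 members; the horizontal axis gives the CT mean and the vertical axis the Mock mean, each divided by the highest of the PD, SW, BW and RF means, both on log2 axes. The 12 filled points above the dashed line at 2 also meet the rule in Mock, 23 points lie at or below 1 on the vertical axis, and the open point at the far right is chr9:14672399-14676289, with a Mock mean of 9.49 FPKM.

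Among the 12 loci high in both sets of 20 DAP flesh, Mock lay below CT at some and above CT at 7. At chr9:33130627-33133472 the libraries had 3743, 3645 and 3483 FPKM in CT, against 1636, 1622 and 1764 in Mock. At chr5:10117915-10121202 they had 3472, 3446 and 3463 FPKM in CT, against 1335, 1348 and 1418 in Mock. At chr2:6780011-6781501 they had 68.2, 64.3 and 68.4 FPKM in CT, against 42.5, 40.3 and 39.3 in Mock. These were lower in Mock but still above every other stage. The difference was smaller at chr10:31864823-31870433 and chr4:10427630-10432305, though every CT library still lay above every Mock library. At chr10:31864823-31870433 CT means were 476 ± 51.6 FPKM, against 435 ± 4.26 in Mock (SD, n = 3 each). At chr4:10427630-10432305 they were 222 ± 20.6 FPKM, against 198 ± 3.73 in Mock (SD, n = 3 each). The other 7 loci were higher in Mock than in CT in all libraries. At chr2:7803807-7804298 the libraries had 1721, 1765 and 2048 FPKM in CT, against 4978, 4763 and 4489 in Mock. At chr1:29384423-29385722 they had 211, 218 and 216 FPKM in CT, against 465, 471 and 475 in Mock. At chr6:26968298-26970963 they had 93.9, 96.4 and 83.7 FPKM in CT, against 172, 176 and 185 in Mock. The other 4 of these 7 were chr10:30523963-30525951, with means of 129 FPKM in CT and 171 in Mock, and chr10:29199200-29201414, chr5:28631561-28632078 and chr6:24406956-24407348.

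Over all 46 members, the 3 CT libraries lay above the 3 Mock libraries at 39 and below them at 7, with no overlap at any. Among loci with a CT mean of at least 10 FPKM, 36.9% had all CT libraries above Mock and 44.3% below. The rule chose members for high CT values, so nothing is read from that difference. CT replicate 1, not used by the rule, was above all Mock libraries at 39 members, beside 41.0% of those loci, and below all at 7, beside 50.9%. As a replicate of the CT libraries that chose the members, it shares their high levels, so nothing is read from these counts. The CT to Mock ratio, with the CT mean of the rule, had a median of 2.51 over the members and 0.957 over loci at 10 FPKM or more in CT. It rests on the CT values that chose the members, so nothing is read from that difference either. The ratio exceeded 5 at 17 members, and the share over all loci was not counted. The most abundant locus, chr10:21559312-21559608, was among them, with 109151, 110618 and 77731 FPKM in CT, against 13237, 13252 and 12829.9 in Mock. Its Mock level lay between its RF and BW levels. Members with a Mock mean under 1 FPKM numbered 2. They were chr6:3047055-3048326, with 44.999, 45.1 and 52.8 FPKM in CT, against 0.377, 0.328 and 0.384 in Mock, and chr10:24656496-24659907, with 13.4, 13.3 and 13.5 FPKM in CT, against 0.243, 0.0706 and 0.160 in Mock. Both also stayed under 1 FPKM in every 5_Aza and rind library. At chr4:22770531-22771020 the CT libraries had 55.2, 58.5 and 64.9 FPKM, against 1.68, 0.476 and 1.17 in Mock.

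In 5_Aza flesh the members moved in both directions and mostly by small amounts. Of the 44 members at 1 FPKM or more in enough libraries to be tested, 21 rose and 12 fell relative to Mock, and 11 did not pass the test (limma, adjusted p under 0.05). Over all 15552 loci tested, 29.5% were higher and 13.3% lower. Scaling libraries by the median of ratios gave 17 members higher and 17 lower, beside 3308 of all loci higher and 3479 lower, with a shift of -0.086 in the median over all loci on the log2 scale. The median log2 fold change was 0.165 over the 44 members and 0.072 over all loci. A rise of at least 2-fold was reached by 3 members, beside 4.09% of all loci, and such a fall by 0, beside 0.186%. The largest rise was at the low locus chr10:2543427-2544440, with means of 5.68 FPKM in 5_Aza and 1.69 in Mock (log2 fold change 1.33 ± 0.15 SE, limma adjusted p = 3.18e-05). Next came chr11:7970524-7970829, with 9.97 and 4.10 FPKM (1.16 ± 0.21, limma adjusted p = 0.00127). The largest fall among the members was at the low locus chr9:33367941-33370759, with 2.30, 3.22 and 2.31 FPKM in 5_Aza, against 5.59, 4.37 and 5.79 in Mock (log2 fold change -0.79 ± 0.13 SE, limma adjusted p = 0.000659).

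The largest rise with a mean of 10 FPKM or more was at chr6:26322946-26324430, with 35.5, 36.2 and 35.8 FPKM in 5_Aza, against 15.1, 17.1 and 16.7 in Mock. The sets did not overlap, and the log2 fold change was 1.09 ± 0.06 (SE, limma adjusted p = 1.05e-07). At chr2:834772-840309 the libraries had 72.4, 73.3 and 68.6 FPKM in 5_Aza, against 38.5, 37.8 and 41.8 in Mock (log2 fold change 0.84 ± 0.05, limma adjusted p = 2.31e-07). In CT, which has the other form of output, this locus had 76.1, 74.1 and 62.9 FPKM. At chr4:10427630-10432305 they had 341, 345 and 356 FPKM in 5_Aza, against 201, 200.1 and 194 in Mock (0.81 ± 0.03, limma adjusted p = 1.43e-08). The most abundant locus, chr10:21559312-21559608, rose to 17931, 16088 and 16523 FPKM in 5_Aza, against 13237, 13252 and 12829.9 in Mock (0.36 ± 0.04, limma adjusted p = 1.63e-05).

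Among members with a mean of 10 FPKM or more in Mock, 3 falls stood first in size. At chr6:26968298-26970963 the libraries had 112, 108 and 105 FPKM in 5_Aza, against 172, 176 and 185 in Mock (log2 fold change -0.71 ± 0.04, limma adjusted p = 2.17e-07). At chr10:30523963-30525951 they had 111, 116 and 110.3 FPKM in 5_Aza, against 169, 171 and 172 in Mock (-0.60 ± 0.04, limma adjusted p = 2.4e-07). At chr2:7803807-7804298 they had 3697, 3483 and 3611 FPKM in 5_Aza, against 4978, 4763 and 4489 in Mock (-0.40 ± 0.04, limma adjusted p = 1.02e-05). Among the abundant members, chr11:25740296-25744161 averaged 1182 ± 19.9 FPKM in 5_Aza and 1193 ± 32.4 in Mock (SD, n = 3 each) and did not pass the test (limma adjusted p = 0.776).

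**Figure D4:**
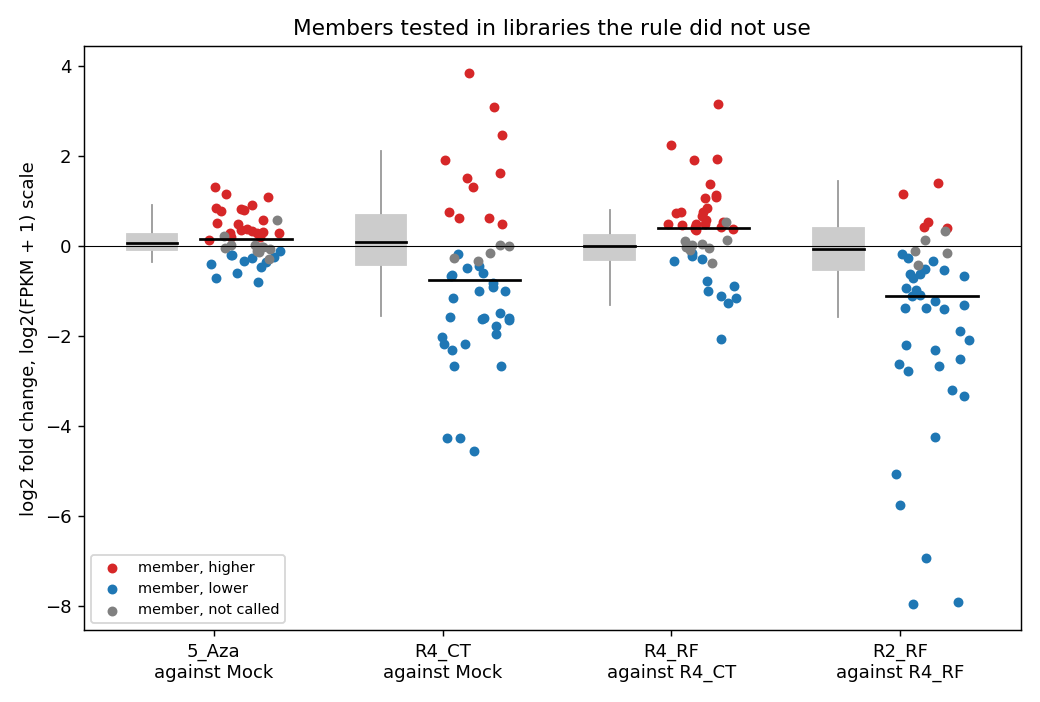
Log2 fold changes on the log2(FPKM + 1) scale of the 44 members tested (points: red higher, blue lower, grey not past the test; black bar: their median) beside all loci tested (grey box: quartiles and median; whiskers: 5th to 95th percentile) in 4 comparisons. Member medians are 0.165, -0.742, 0.412 and -1.098 from left to right, where medians of all loci are 0.072, 0.096, 0.007 and -0.061.

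Rind of the same age held most of these transcripts at lower levels than Mock flesh. In R4_CT against Mock, 11 members rose and 28 fell (limma, adjusted p under 0.05), beside 43.3% of 16859 loci higher and 34.4% lower. By at least 2-fold, 7 were higher, beside 17.2% of loci, and 18 lower, beside 10.1%. The median log2 fold change was -0.742 over the members and 0.096 over all loci. The rule chose members for high levels in CT, and Mock is flesh of the same age as CT. That choice may favour levels above rind in Mock, so nothing is read from these counts or from the member median. At chr10:30523963-30525951 the libraries had 5.89 and 6.77 FPKM in R4_CT, against 169, 171 and 172 in Mock (log2 fold change -4.55 ± 0.07, limma adjusted p = 2.17e-15). At chr5:10117915-10121202 they had 74.2 and 66.3 FPKM in R4_CT, against 1335, 1348 and 1418 in Mock (-4.26 ± 0.06, limma adjusted p = 6.3e-16). At chr1:29384423-29385722 they had 23.4 and 23.9 FPKM in R4_CT, against 465, 471 and 475 in Mock (-4.26 ± 0.05, limma adjusted p = 2.87e-16).

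A few members were instead higher in this rind. At chr11:7970524-7970829 the libraries had 84.7 and 58.3 FPKM in R4_CT, against 4.13, 5.86 and 2.33 in Mock (3.87 ± 0.37 on the log2 scale, limma adjusted p = 0.000128). At chr4:22770531-22771020 they had 16.6 and 16.6 FPKM in R4_CT, against 1.68, 0.476 and 1.17 in Mock (3.10 ± 0.19, limma adjusted p = 3.12e-08). At chr9:14672399-14676289, the narrowest peak of the flesh stages, they had 54.1 and 60.9 FPKM in R4_CT, against 8.76, 9.44 and 10.3 in Mock (2.48 ± 0.10, limma adjusted p = 4.33e-11). In CT, which has the other form of output, this locus had 69.6, 68.1 and 68.0 FPKM. The Mock and rind libraries share 1 form of output, but no label ties them to 1 experiment, so tissue cannot be told apart from other differences between these sets.

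Many members were higher in the older R4 rind, the reverse of their order in flesh at 30 and 20 DAP. In R4_RF against R4_CT, at 30 and 20 DAP, 24 members rose and 11 fell (limma, adjusted p under 0.05), beside 25.6% of loci higher and 27.0% lower. By at least 2-fold, 8 were higher, beside 3.10% of loci, and 5 lower, beside 7.83%. In flesh all 46 had their 3 RF libraries below the 3 CT libraries, a direction that the rule fixed. The largest rise was at chr8:1604214-1610508, with 1650.5 and 1636 FPKM in R4_RF, against 175 and 189 in R4_CT (log2 fold change 3.17 ± 0.05, limma adjusted p = 7.46e-14). In flesh this locus had 244, 235 and 222 FPKM in CT and 104, 108 and 105 in RF. At chr6:24406956-24407348 rind libraries had 33.8 and 35.9 FPKM in R4_RF, against 6.46 and 6.54 in R4_CT (2.26 ± 0.08, limma adjusted p = 6.98e-11). At chr10:30523963-30525951 they had 27.1 and 27.4 FPKM in R4_RF, against 5.89 and 6.77 in R4_CT (1.95 ± 0.08, limma adjusted p = 1.18e-10).

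Falls in ageing R4 rind were led by the same locus that was sharpest in flesh. At chr9:14672399-14676289 libraries had 11.8 and 14.4 FPKM in R4_RF, against 54.1 and 60.9 in R4_CT (-2.06 ± 0.11 on the log2 scale, limma adjusted p = 3.7e-09). At chr11:7970524-7970829 they had 31.8 and 26.3 FPKM in R4_RF, against 84.7 and 58.3 in R4_CT (-1.25 ± 0.40, limma adjusted p = 0.0433). The call was lost under 4 alternatives, in which the log2 fold change was -1.39 without R4_RF replicate 1 (limma adjusted p = 0.1), -1.12 without R4_RF replicate 2 (0.167), -0.99 without R4_CT replicate 1 (0.134) and -1.28 at a pseudocount of 0.1 (0.0684). It was kept without R4_CT replicate 2 (-1.52, limma adjusted p = 0.0403), with a replicate block (0.00407) and in 1 fit of all 12 libraries (0.0117). At chr10:29199200-29201414 they had 66.9 and 67.0 FPKM in R4_RF, against 132 and 139 in R4_CT (-1.004 ± 0.06, limma adjusted p = 4.15e-09). At the most abundant locus, chr10:21559312-21559608, the 7045 and 5507 FPKM in R4_RF, against 5219 and 3522 in R4_CT, did not pass the test (limma adjusted p = 0.0745).

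Between the 2 kinds of 30 DAP rind most members differed. In R2_RF against R4_RF, 5 members rose and 34 fell (limma, adjusted p under 0.05), beside 31.4% of loci higher and 38.4% lower. By at least 2-fold, 2 were higher, beside 9.37% of loci, and 23 lower, beside 11.1%. The median log2 fold change was -1.098 over the members and -0.061 over all loci. At the most abundant locus, chr10:21559312-21559608, libraries had 24.7 and 23.5 FPKM in R2_RF, against 7045 and 5507 in R4_RF (log2 fold change -7.95 ± 0.20, limma adjusted p = 3.36e-07). At chr9:33130627-33133472 they had 3.59 and 3.28 FPKM in R2_RF, against 1084 and 1044 in R4_RF (-7.91 ± 0.05, limma adjusted p = 8.38e-19). At chr2:7803807-7804298 they had 6.43 and 6.76 FPKM in R2_RF, against 933 and 931 in R4_RF (-6.94 ± 0.05, limma adjusted p = 1.66e-18). The highest R2_RF level of those 3 loci was thus 24.7 FPKM. Their lowest level in any CT, 5_Aza, Mock or R4 rind library was 930.6 FPKM. The locus chr7:3732954-3733977 was listed at 0 in both R2_RF libraries, against 17.2 and 18.8 FPKM in R4_RF.

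Some abundant members went the other way in R2_RF. At chr1:31685617-31686158 libraries had 969 and 1055 FPKM in R2_RF, against 368 and 393 in R4_RF (log2 fold change 1.41 ± 0.06, limma adjusted p = 1.08e-10). At chr9:37467535-37469750 they had 631 and 638 FPKM in R2_RF, against 286 and 283 in R4_RF (1.15 ± 0.05, limma adjusted p = 1.36e-10). At chr1:2161322-2161949 they had 389 and 359 FPKM in R2_RF, against 277 and 237 in R4_RF (0.54 ± 0.09, limma adjusted p = 0.000117). At 3 members the R2_RF mean was above the CT mean of the rule, at chr8:1604214-1610508 with 1057 and 1089 FPKM in R2_RF, at chr1:31685617-31686158 and at chr6:24406956-24407348. CT has the other form of output, and its means chose the members. As the share over all loci was also not counted, nothing is read from this number. The rind comparisons share the R4 libraries, so they are not independent of each other.

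By position the members were scattered. They lay on all 11 chromosomes, with 1 on chromosome 3 and 7 on chromosome 10. The nearest pair, chr2:1718021-1718767 and chr2:1740968-1742630, had 1 other locus and 22200 bp between them, and no 3 members were neighbours. Locus spans ran from 264 to 7489 bp, with a median of 1497 bp for the members, 2347 bp for all loci and 3109 bp for loci with a CT mean of at least 10 FPKM. A span of 600 bp or less was found for 10 members (21.7%) and for 14.2% of all loci.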

How the data were processed

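Trizol extraction and DNase I treatment preceded standard Illumina library preparation, per the labels' protocols, and the stage libraries were sequenced on a HiSeq 2500, per the series' design text. HISAT2, fastp and SAMtools 1.5 were used, per the submitters' processing notes, while the quantifier, annotation, strand setting and genome build were not given in the sources used here. Per the file headers the authors deposited FPKM for each locus, values already scaled to length and library total. Raw counts were not used here, and read depth is unknown.

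Groups, replicate numbers and ages came from the titles and age labels. Rows were joined by locus, identical in 29 of 30 files. In PD replicate 3, 11643 values were moved by 1 row, which took their correlation with PD replicate 1 to 0.993, against 0.12 as deposited. AP replicates 1 and 2 correlated with the other libraries at 0.0087 and 0.0077 at most and were left out. Starts in AP replicate 3 lie lower by 1 and were shifted. Blocks of 50 rows with a replicate correlation under 0.8 were left out, which removed 50 loci of chromosome 1 (28189554 to 28726638) in CT replicate 1 and 50 scaffold loci in AP replicate 3; no member lost a value.

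Members were found by the rule. Tests used limma 3.58.1 in R 4.3.3 (trended, robust) on log2(FPKM + 1), which understates changes at low loci. The filter asked for 1 FPKM in a number of libraries equal to the size of the smallest group, and the Benjamini-Hochberg adjustment ran over all loci of each comparison, with a threshold of 0.05. One fit held 5_Aza and Mock (4 residual degrees of freedom) and the other R2_RF, R4_RF, R4_CT and Mock (5). The fit was tested on simulated data. Of the 46 members, 44 entered both fits. The 2 others had at most 0.638 and 0.384 FPKM in those libraries. No test compares CT with Mock.

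The members and all lists were chosen with earlier results of these data known. Named members are the 10 highest in CT, the 8 with the largest ratio, the 8 highest in Mock that meet the rule there, those under 1 FPKM in Mock (up to 4), the loci at the thresholds, and per comparison the 3 members that rose and the 3 that fell most among those past the threshold, at 10 FPKM or more in the higher group and without overlap. Members outside this rule were named after their values were seen. Pathway lists could not be applied, since the loci were not paired with gene names. Alternatives were other pseudocounts, filters, scalings, thresholds of the rule, a replicate block, 1 fit of all these libraries, and leaving out each library.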

Additional observations from a re-analysis of the deposited data

Results flagged for a closer look

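At 14 of the 27 named members the 30 DAP rind R4_RF was higher than the 20 DAP rind R4_CT (limma, adjusted p under 0.05), while in flesh all 3 RF libraries lay below all 3 CT libraries. Over all loci tested 25.6% were higher in R4_RF than in R4_CT, and some of the 27 were named for their rise in this comparison, so nothing is read from the count. The flesh direction was fixed by the rule that chose the members, and the difference between tissues was not tested. The log2 fold changes of R4_RF against R4_CT were 3.17 at chr8:1604214-1610508, 2.26 at chr6:24406956-24407348, 1.95 at chr10:30523963-30525951 and 1.92 at chr7:3732954-3733977. They were 1.14 at chr2:6780011-6781501, 1.10 at chr1:29384423-29385722 and 1.07 at chr4:26547947-26548760. Smaller values were 0.77 at chr1:31685617-31686158, 0.68 at chr6:26968298-26970963 and 0.59 at chr10:31864823-31870433. The lowest were 0.44 at chr5:31831219-31833010, 0.43 at chr1:2161322-2161949, 0.39 at chr11:25740296-25744161 and 0.36 at chr2:834772-840309.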

How the results depend on the processing

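The number of members depended on the ratio of the rule, with 157 loci at a ratio over 1.5 and 14 at a ratio over 3, beside 46 at 2. Scaling the stage libraries by the median of ratios gave 64 loci, with all 46 among them, and CT from all 3 replicates gave 43, with 42 shared. Leaving out single libraries gave 43 to 54. With Mock in place of CT, 1689 of all loci met the rule at a ratio over 1.5, against 997 at 2. Among all loci, 3479 were lower in 5_Aza under median-of-ratios scaling, against 2064 without it. The 86 alternatives to the counts of members higher or lower stayed within 1.5 times. Of 258 alternatives to the 24 named log2 fold changes, 254 kept direction and side of the threshold, and 0 reversed. The other 4 concern chr11:7970524-7970829 in R4 rind, given above. Replicate numbers did not pair 5_Aza with Mock, as same-numbered libraries had correlated deviations of -0.136, 0.08 and -0.19. Differently numbered libraries ran from -0.294 (5_Aza replicate 2 with Mock replicate 1) to 0.393 (5_Aza replicate 3 with Mock replicate 1). The replicate block joined same numbers only, so any other pairing was not tested. The correlation was -0.059 for R4_CT with Mock, 0.282 for R4_RF with R4_CT and 0.336 for R2_RF with R4_RF, each from 2 pairs, too few to show a pairing. With a replicate block, 21 members were higher and 11 lower in 5_Aza, 11 and 29 in R4_CT against Mock, 26 and 11 in R4_RF against R4_CT, and 4 and 35 in R2_RF against R4_RF. Over all loci the same blocked fits gave 4212 higher and 1865 lower, 7353 and 5672, 4648 and 4805, and 5479 and 6690, in that order of comparisons. The rind groups hold 2 libraries, so leaving 1 out assumes that the other varies like the remaining groups. At a pseudocount of 0.1 the fold change was over 1.5 times larger at 3 members in R4_RF against R4_CT and at 7 in R2_RF against R4_RF. Read depth is unknown, so counting error at low values could not be given.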

Other observations

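Singled out after their values were seen, 4 members had a CT replicate 3 well below the other CT libraries. At chr8:7247019-7247282, the shortest member, CT libraries had 263, 254 and 171 FPKM, against 8.44, 9.42 and 9.44 in Mock. At chr2:1718021-1718767 they had 46.04, 44.0 and 29.4 FPKM, against 3.32, 4.30 and 3.97 in Mock. At chr6:3799663-3800465 they had 148, 158 and 112 FPKM, against 19.5, 20.8 and 17.1 in Mock. The most abundant locus, chr10:21559312-21559608, is the fourth of them. Every CT library of these 4 loci exceeded every other flesh library. The rule chose them for CT means above the other stages, so nothing is read from this.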
